A study of Mus musculus with 4 samples.

Results

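The genes described here encode the proteins of the mitochondrial ribosome, in mouse T cells. A gene was a member if it was protein-coding and its symbol began with Mrpl (large subunit) or Mrps (small subunit) followed by a digit. This gave 78 genes, 49 of the large and 29 of the small subunit by symbol, of 21764 protein-coding genes and 50600 genes counted in all. RNA of primary T cells of strain C57BL/6NJ was sequenced in 4 libraries, biological replicates 1 to 4, which form a single group with no untreated, mutant or other control; age and sex are not given. The file headers name the cells mmTh0, activated, with a time of 16 h, and the labels link a protocol for the differentiation of CD4+ T cells. The 4 biosamples carry the same donor identifier, so whether they came from separate animals is not known, and the spread between them may be technical. The design therefore allows a description of levels, of their order and of the spread between libraries, and no comparison of conditions.

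The libraries held between 46192242 and 63313389 counted read pairs. Levels are given in TPM, which is a count divided by the gene's length and scaled to the same total in every library. A gene is called detected where all 4 libraries reached 1 TPM. The 7 T cell markers examined, Cd4 among them, were all detected and summed to between 5130 and 5300.2 TPM. Of the 2 CD8 T cell markers Cd8b1 was detected and Cd8a was not, with a sum of 54.2 to 62.2 TPM. None of the 4 B cell markers was detected, and they summed to at most 8.75 TPM in a library. Of the 4 macrophage and monocyte markers Cd68 alone was detected (sum 1.94 to 6.17 TPM), and the 3 neutrophil markers were at 0 in all libraries. In bulk RNA, a difference in the number of cells of a type and a difference in RNA per cell cannot be told apart.

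Mitochondria have their own ribosomes, which translate the few respiratory chain proteins encoded by mitochondrial DNA. The ribosomal RNAs come from the mitochondrial genome, whereas all the proteins are encoded in the nucleus, made in the cytosol and imported. Some of these proteins descend from bacterial ribosomal proteins, and others, most of them without a bacterial counterpart, are called mitochondria-specific. Going by the textbook names of the proteins, 46 of the 78 members were of the first family and 31 of the second. Mrps18a and Mrps18b counted as mitochondria-specific by name, although they are related to a bacterial protein. Mrps36 was placed in neither family, since its product is known as a component of the 2-oxoglutarate dehydrogenase complex despite its name. T cells are known to enlarge their mitochondrial mass and their translation capacity when they are activated.

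The promoters of the members are shown first for the 2 genes with the highest mean level, Mrpl12 and Mrps16, and for 2 genes that carried more than 1 copy of a searched motif, Mrpl45 and Mrpl34. These examples were chosen after the values and motifs were seen. Each sequence is the 250 bases before the RefSeq start, written 5′ to 3′ on the gene's strand with GRCm38.p6 coordinates, and capitals mark matches to a searched motif. Mrpl12 encodes the stalk protein that contacts the elongation factors, and its window (chr11:120484387-120484636, plus strand) held 1 NRF1 motif, 80 bases before the start.
Mrpl12: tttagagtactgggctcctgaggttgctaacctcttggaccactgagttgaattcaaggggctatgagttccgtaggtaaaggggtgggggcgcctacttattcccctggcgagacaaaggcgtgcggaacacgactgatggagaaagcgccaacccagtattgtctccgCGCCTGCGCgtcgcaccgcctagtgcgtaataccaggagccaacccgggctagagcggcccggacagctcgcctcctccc
Mrps16 encodes a small-subunit protein with a bacterial homologue, and its window (chr14:20393635-20393884, minus strand) held no match, which says only that these letters are not there.
Mrps16: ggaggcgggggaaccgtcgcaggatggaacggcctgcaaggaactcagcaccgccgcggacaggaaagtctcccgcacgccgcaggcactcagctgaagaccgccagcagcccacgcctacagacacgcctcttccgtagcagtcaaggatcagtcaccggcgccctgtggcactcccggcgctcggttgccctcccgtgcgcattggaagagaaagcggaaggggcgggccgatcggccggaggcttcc
Mrpl45 encodes a mitochondria-specific protein near the exit of the nascent chain, and its window (chr11:97315466-97315715, plus strand) held NRF1 motifs at 120 and 38 bases before the start.
Mrpl45: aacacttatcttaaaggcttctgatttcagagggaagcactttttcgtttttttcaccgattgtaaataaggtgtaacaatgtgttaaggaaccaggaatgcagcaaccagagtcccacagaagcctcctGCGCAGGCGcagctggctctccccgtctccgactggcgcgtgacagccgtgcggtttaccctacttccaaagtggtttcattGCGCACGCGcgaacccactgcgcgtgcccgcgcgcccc
Mrpl34 encodes a small large-subunit protein with a bacterial homologue, and its window (chr8:71464676-71464925, plus strand) held 3 ZNF143 motifs, at 201, 45 and 11 bases before the start.
Mrpl34: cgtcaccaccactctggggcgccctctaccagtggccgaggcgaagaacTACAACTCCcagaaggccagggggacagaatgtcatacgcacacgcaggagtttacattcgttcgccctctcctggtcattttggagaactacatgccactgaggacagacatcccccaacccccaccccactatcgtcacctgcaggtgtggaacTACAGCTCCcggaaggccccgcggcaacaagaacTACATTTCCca

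The motifs were searched on both strands in the RefSeq promoters, from 250 bases before to 50 bases after the start, and 69 of the 78 members had such a promoter. The RefSeq start lay within 100 bases of the 5′ end of the principal transcript, the annotation's main isoform, for 55 of the 69. It lay up to 2496 bases away (Mrpl36), so a window can miss the promoter of that transcript. The letters searched were GCGCANGCG for NRF1, CCGGAAGT for ETS factors, AANATGGCG for YY1 and TACANNTCC for ZNF143, where N is any base. Matches of different motifs were allowed to overlap. NRF1, the nuclear respiratory factor, is known to bind promoters of nuclear genes for mitochondrial proteins. Its motif was in 23.2% of the members' promoters, in 16.0% of the 7921 promoters of detected protein-coding genes, and in 9.18% of all 16469 promoters. The ETS motif was in 17.4%, 10.3% and 5.59% of the same sets. The YY1 motif was in 15.9%, 6.46% and 3.49%. The ZNF143 motif was in 7.25%, 7.36% and 5.14%, so its share in the members was that of detected genes. At least 1 of these motifs was in 39 of the 69 members' promoters (56.5%), against 34.5% of the promoters of detected genes. These shares are descriptions with no test, and a match is not a binding site. The median GC content of the members' windows was 58.0%, and that of the detected genes' windows was 61.33%.

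Medians with and without a motif depended on the gene length. The 16 members with an NRF1 motif had a median of 102 TPM and the 53 without had 91.8 TPM, and by the length of the principal transcript the medians were 87.6 and 94.6 TPM. With the YY1 motif the median was 91.0 TPM (n = 11) and without it 95.8 TPM (n = 58), and by the principal transcript they were 96.7 and 88.6 TPM. For the ETS motif the medians were 63.6 TPM (n = 12) with and 98.2 TPM (n = 57) without, but 89.8 and 91.6 TPM by the principal transcript. ZNF143 motifs were in 5 promoters, too few to describe an order.

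Many members lie head to head with another gene. In 31 of the 78 (39.7%; 22 large-subunit and 9 small-subunit genes), the 5′ end of a protein-coding gene on the opposite strand lay within 1000 bases of the member's own 5′ end or overlapped it. This held for 10.6% of 21751 nuclear protein-coding genes and for 18.3% of the 9840 of them that were detected. The partners averaged 1 TPM or more for 28 of the 31 members, and 8 partners had a higher mean than the member. Several partners also encode mitochondrial proteins. Mrps12, the decoding-centre protein of the small subunit, had 172 bases between its 5′ end and that of Sars2, the mitochondrial seryl-tRNA synthetase. Mrpl43 had 116 bases to Twnk, the mitochondrial DNA helicase, and Mrps27 had 108 bases to Ptcd2, a pentatricopeptide repeat protein of mitochondria. Mrpl46, of the large subunit, and Mrps11, of the small, were each other's partner on chromosome 7, and the signed distance between their 5′ ends was -412 bases, which means that the genes overlap. Mrpl46 averaged 104 ± 3.52 TPM (SD, n = 4) and Mrps11 60.0 ± 3.74 TPM, so a shared 5′ region went with unequal levels of mature RNA on this scale. With the principal transcript's length the means were 88.4 and 84.0 TPM. By chromosome, 11 members were on chromosome 11, 8 on chromosome 17 and 7 on chromosome 6, and none on chromosome 12, 18, X or Y.

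Nearly all members were expressed. TPM was computed from the deposited counts and the exonic length of each gene, so that levels can be compared between genes. By this measure 77 of 78 members were detected, against 9840 of all 21751 nuclear protein-coding genes. Of the members, 65 lay above 32.7 TPM, the median of the detected nuclear protein-coding genes. The median of the members' means was 94.6 TPM, with quartiles at 45.0 and 145 TPM. Together the members summed to 8841, 8710, 8723 and 8224 TPM in replicates 1 to 4, a mean of 8625 ± 274 TPM (SD, n = 4). The sum was lowest in replicate 4, and the other 3 libraries lay close together. The 49 large-subunit genes summed to 5664 ± 181 TPM and the 29 small-subunit genes to 2961 ± 95.1 TPM. For comparison, the 91 genes of cytosolic ribosomal proteins had a median of 1077 TPM.

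As a share of all counted read pairs, which depends on gene length, the members took 0.511% in replicate 1, 0.508% in replicate 2, 0.502% in replicate 3 and 0.464% in replicate 4. The Wilson 95% interval was 0.509 to 0.513% in replicate 1 and 0.462 to 0.466% in replicate 4; these intervals cover counting error only. The difference between replicate 4 and the others was thus larger than counting error. Mitochondrially encoded genes took 0.558%, 0.505%, 0.546% and 0.664% of read pairs in the same order, with the highest share in replicate 4. Of the 15 such genes for rRNAs and proteins, 6 had almost no counts, so this share comes nearly all from the other 9. Whether reads of those 6 genes were lost in mapping was not tested.

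**Figure D1:**
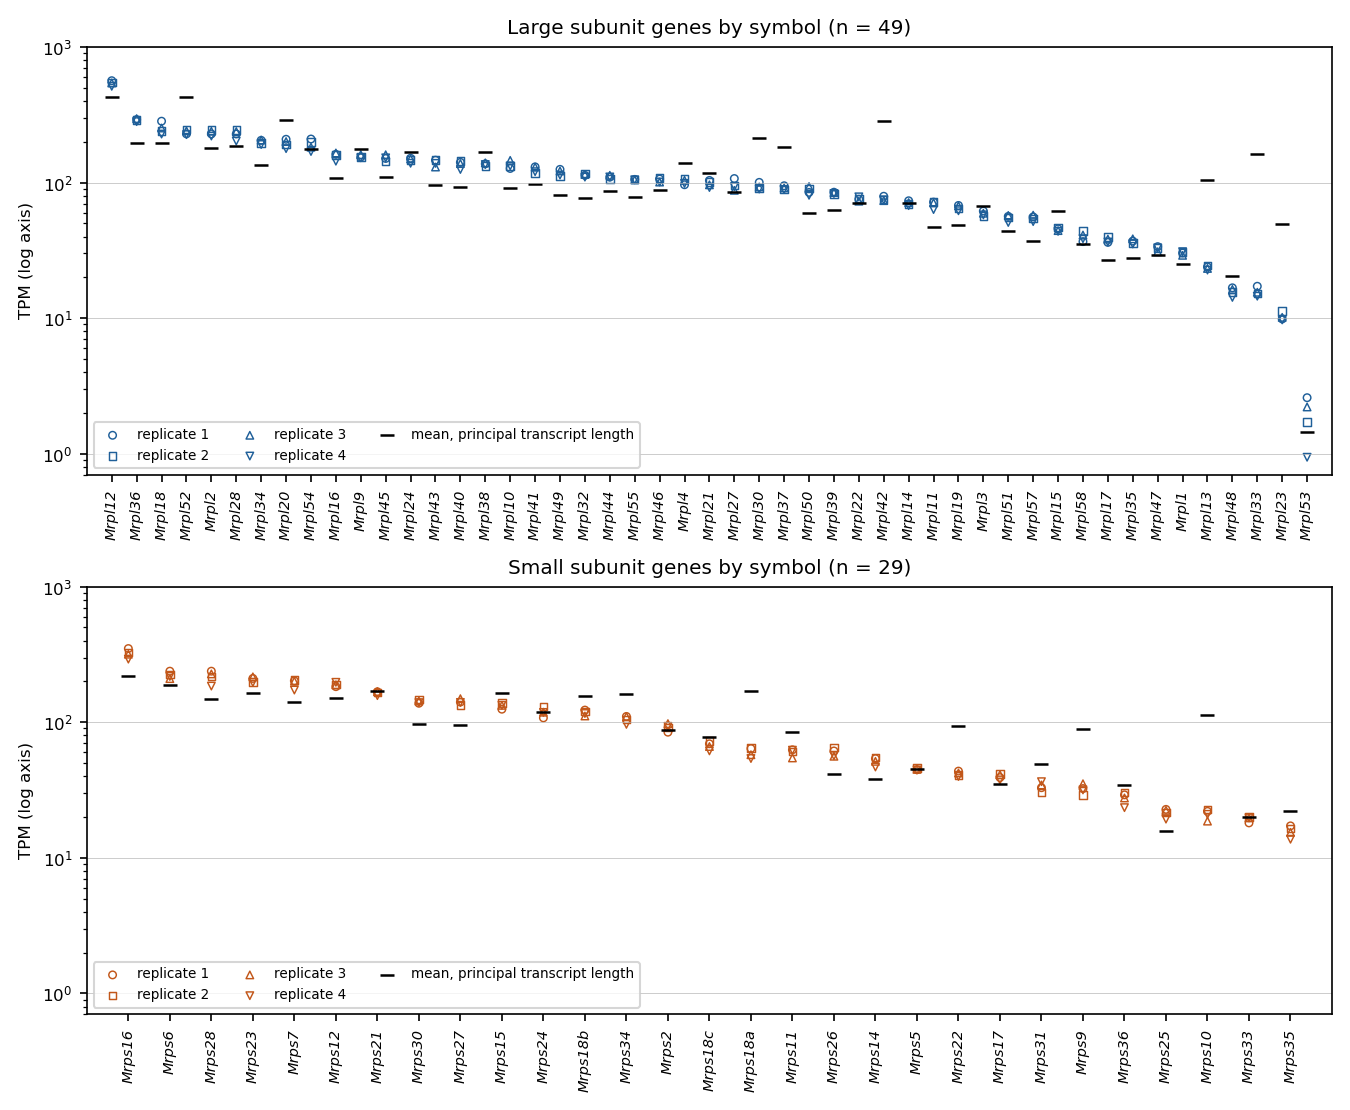
Level of each of the 49 large-subunit (top) and 29 small-subunit (bottom) genes in TPM on a log axis, ordered by mean, with 1 symbol per library (replicates 1 to 4) and a black dash for the mean when the principal transcript's length is used. Mrpl12 (541.8 TPM) and Mrpl53 (1.87 TPM) are the ends of the order, the symbols of a gene mostly overlap, and the dash lies far above the symbols for genes such as Mrpl33 and Mrps10.

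Mrpl12 (chr11:120484613-120489065 on the plus strand, mm10) had the highest level. It was at 564, 547, 543 and 513 TPM in replicates 1 to 4, a mean of 542 ± 21.3 TPM (SD, n = 4). It was the highest member in all 4 libraries, and its lowest library lay above the highest library of every other member. Mrps16 (chr14:20391231-20393555 on the minus strand) was second, at 349, 328, 317 and 292 TPM, with a mean of 322 ± 23.8 TPM. The ratio of the 2 means was 1.68. With the length of the principal transcript, Mrpl12 averaged 430 TPM and Mrpl52, a mitochondria-specific large-subunit protein, 425 TPM. On that scale Mrpl12 was highest in replicate 1 and Mrpl52 in the other 3 libraries, so the first place depends on the gene length that is used.

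The other high members of the large subunit were Mrpl36, Mrpl18, Mrpl52, Mrpl2, Mrpl28, Mrpl34, Mrpl20, Mrpl54 and Mrpl16. Mrpl36, a very small protein with a bacterial homologue, was at 291, 290.1, 296 and 282 TPM, and its libraries differed little. Mrpl18, a protein of the central protuberance, was at 284, 241, 253 and 228 TPM, highest in replicate 1. Mrpl2, which lies close to the peptidyl transferase centre, averaged 233 ± 10.4 TPM. The remaining 6 of these genes averaged between 157.5 TPM (Mrpl16) and 235 TPM (Mrpl52).

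In the small subunit, Mrps6, Mrps28, Mrps23, Mrps7, Mrps12, Mrps21, Mrps30, Mrps27 and Mrps15 followed Mrps16, with means from 223 TPM (Mrps6) to 133 TPM (Mrps15). Mrps12 was at 183, 189, 189 and 197 TPM and varied little. Mrps7, a protein of the small-subunit head, was at 202, 205, 201 and 173 TPM, with replicate 4 apart from the other 3. Mrps30 averaged 142 ± 4.11 TPM; despite its symbol, its protein is placed in the large subunit in solved structures. Of Mrps6, 15.1% of the exonic bases overlap Slc5a3 on the same strand, and read pairs that fall on both genes cannot be assigned to either.

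The lowest members of the large subunit were Mrpl53, Mrpl23, Mrpl33, Mrpl48 and Mrpl13. Mrpl53 (chr6:83109040-83109939 on the plus strand) was at 2.59, 1.71, 2.22 and 0.943 TPM, below all other members in every library and under 1 TPM in replicate 4. Its exons overlap Gm42688 on the same strand over 88.0% of their bases, and read pairs that fall on both genes cannot be assigned to either, so its level is uncertain. Its lowest library held 10 read pairs. Mrpl23, at 9.88, 11.3, 10.1 and 9.72 TPM, shared 76.4% of its 50-base words with genes elsewhere, for which the processed pseudogene Mrpl23-ps1 was the match found, so its level is uncertain too. The pseudogene was at between 4.76 and 6.81 TPM.

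In the small subunit the lowest were Mrps35 (15.7 ± 1.51 TPM), Mrps33 (19.4 ± 0.891 TPM), Mrps10 (21.1 ± 1.78 TPM), Mrps25 (21.5 ± 1.56 TPM) and Mrps36 (27.7 ± 3.03 TPM). Mrps36 shared 36.2% of its words with other genes, which include 2 of its processed pseudogenes. Across members, 12 shared over 10% of their words with genes elsewhere and 5 overlapped another gene on the same strand over more than 10% of their exonic bases. From Mrpl12 to the lowest member other than Mrpl53, the means spanned 52.9-fold. Between neighbours in the order of means, the ranges of the 4 libraries overlapped for 69 of 77 pairs, so most neighbours cannot be ordered beyond the spread between libraries. The 8 pairs whose ranges did not overlap were Mrpl12 and Mrps16, Mrps12 and Mrps21, Mrpl39 and Mrpl22, Mrpl42 and Mrpl14, Mrps5 and Mrps22, Mrps33 and Mrpl48, Mrpl33 and Mrpl23, and Mrpl23 and Mrpl53.

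The order of the members rested in part on the gene length. The deposited exonic length adds up the exons of all annotated transcripts of a gene, and its median was 2080.5 bases for the members. The median length of the principal transcript, the isoform that the annotation marks as the main one, was 1216.5 bases. Where that transcript was longer than the deposited exonic length, the exonic length was used in its place. The exonic length was over 2 times the principal length for 18 members and over 5 times for 5. Across the 78 members, Spearman's rho between mean TPM and exonic length was -0.69, and rho between mean CPM, the count scaled to the library total without regard to length, and exonic length was 0.26. These correlations are across genes that share the same libraries and are given as a description. Between TPM from the exonic and from the principal length, rho was 0.77.

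Long annotated exons lowered the TPM of several genes. Mrpl33, a small protein with a bacterial homologue, lies at chr5:31596935-31664384 on the plus strand and has an exonic length of 7326 bases and a principal transcript of 478 bases. It was at 17.2, 15.2, 15.5 and 14.5 TPM and averaged 163 TPM with the principal length, which moved it from rank 76 to rank 21. Mrps10 averaged 21.1 TPM and, with the principal length, 114 TPM. Mrpl13 averaged 23.6 and 104 TPM in the same order. Mrpl42 averaged 75.7 and 285 TPM and moved from rank 46 to rank 4. In all, 9 members moved by more than 20 ranks, all upward: Mrpl13, Mrpl30, Mrpl33, Mrpl37, Mrpl42, Mrps9, Mrps10, Mrps18a and Mrps22. Mrpl30, Mrpl37, Mrpl42, Mrps9 and Mrps22 are named here because of these values. Both scales use the same counts, which hold reads from all annotated exons. The principal-length TPM is therefore too high where reads fall outside that transcript. Each scale is also set to the same total over all genes, so a gene of unchanged length can move between them. Mrps16, at 566 bases by both lengths, averaged 322 TPM and, with the principal length, 219 TPM. A change in value between the scales is thus not by itself due to the gene's own length. Which transcripts these T cells use was not measured, so neither scale is the right one for every gene. Detection did not depend on it: 77 of 78 members passed by either length.

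**Figure D2:**
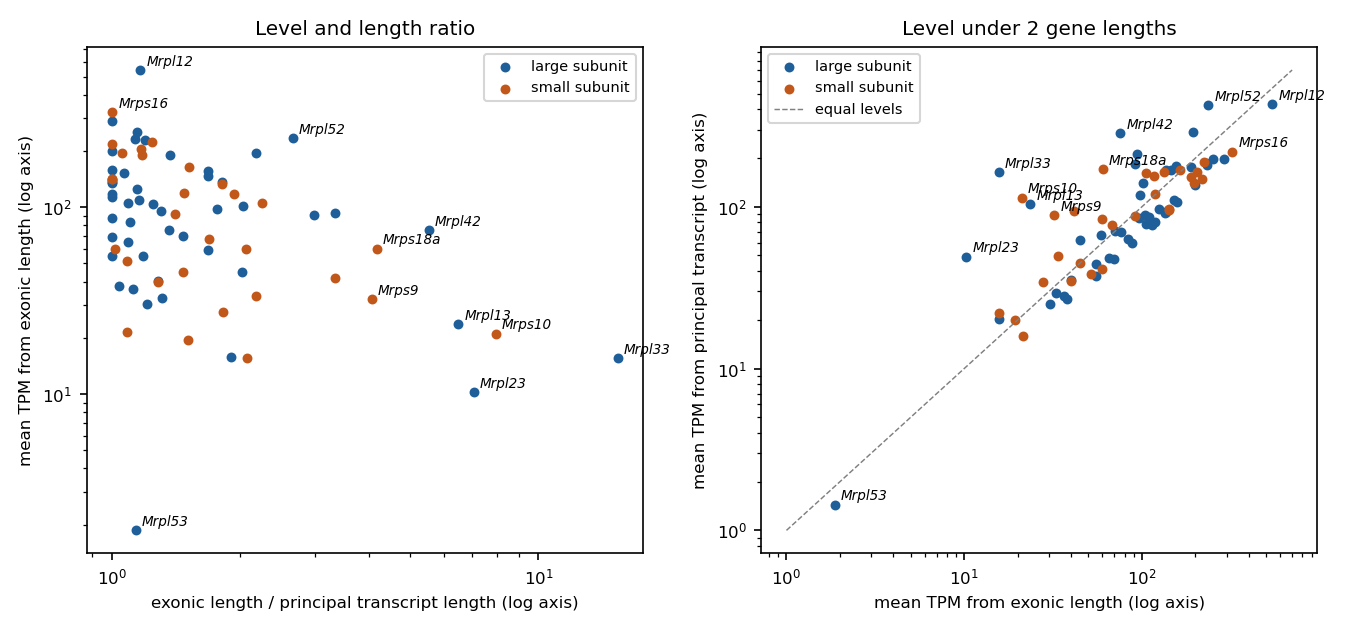
Left, mean TPM from exonic length against the ratio of exonic to principal transcript length; right, mean TPM from the principal transcript against mean TPM from exonic length, with a dashed line at equal levels (all axes log, 1 point per gene, n = 78, coloured by subunit). Genes with a high ratio, such as Mrpl33, Mrps10 and Mrpl13, are low on the left and lie far above the line on the right. Both scales are set to the same total, and Mrps16, whose 2 lengths are equal, lies below the line.

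Large-subunit genes were higher than small-subunit genes by the exonic length and not by the principal length. By exonic length, the median of the members' means was 98.2 TPM for the large and 67.5 TPM for the small subunit. The difference between the subunits' medians of log2(TPM + 1), large minus small, was 0.57, 0.46, 0.53 and 0.58 in replicates 1 to 4, a mean of 0.54 ± 0.055 (SD, n = 4), above 0 in 4 of 4 libraries. With the principal transcript's length the medians were 91.6 TPM for the large and 96.1 TPM for the small subunit. The difference was then -0.013, -0.023, -0.13 and -0.13, a mean of -0.075 ± 0.067, above 0 in 0 of 4 libraries. The ratio of exonic to principal length had a median of 1.19 in the large and 1.47 in the small subunit. On CPM the difference was 0.038, and with the mean over members in place of the median it was 0.16. With Mrps30 and Mrps18a counted in the large subunit, where their proteins sit, and Mrps36 left out, it was 0.32. No p is given for this difference because it is a score over chosen members. The libraries share the gene lengths and members, so agreement between them is no sign that the direction is independent of those choices.

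**Figure D3:**
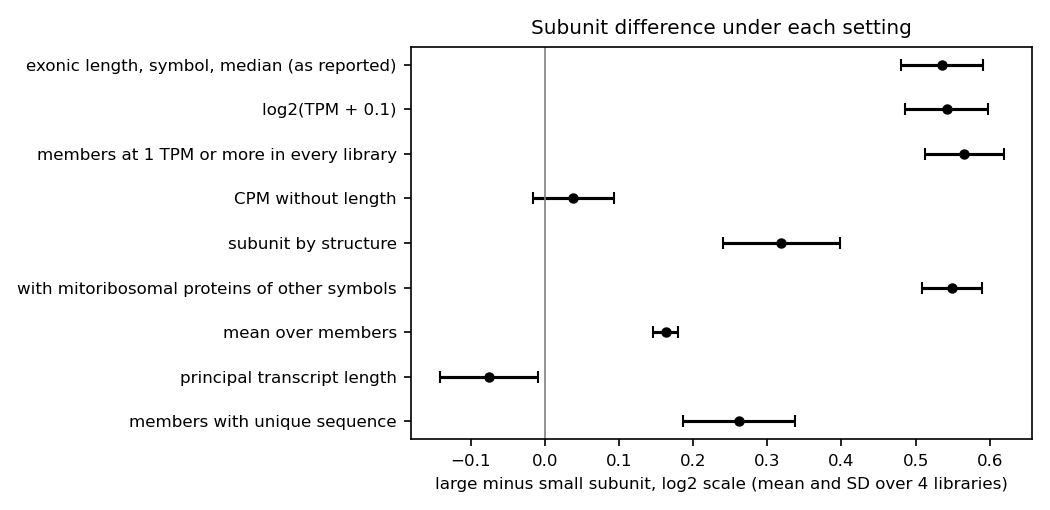
Difference between the medians of large-subunit and small-subunit members (log2 scale, large minus small) under the settings that use all 4 libraries; points are means and bars SDs over those libraries. The value is 0.54 as reported, 0.038 on CPM without length and -0.075 with the principal transcript length.

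By family, members with a bacterial homologue had a median of 97.0 TPM (n = 46) and mitochondria-specific members 91.0 TPM (n = 31). The difference of the medians of log2(TPM + 1), homologue minus specific, was 0.083 ± 0.027 (SD over 4 libraries) and was above 0 in 4 of 4. With the principal length it was 0.20 ± 0.027. Without Mrpl53, the only member under 1 TPM in a library, it was 0.0089, so leaving out 1 gene took most of the difference away. Within the small subunit, the 16 homologues had a median of 105 TPM and the 12 mitochondria-specific genes 59.9 TPM by exonic length, and 117 and 95.3 TPM by principal length. The large subunit went the other way by exonic length, with medians of 97.0 TPM for the 30 homologues and 104 TPM for the 19 mitochondria-specific genes, and by principal length they were 97.9 and 88.4 TPM.

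The Mrps18 genes are a set of related genes whose proteins replace the same bacterial protein or its relatives in different places: Mrps18c in its usual site, Mrps18b elsewhere in the small subunit and Mrps18a in the large subunit. Mrps18b was at 123, 120, 111 and 116 TPM in replicates 1 to 4. Mrps18c was at 69.3, 73.0, 66.2 and 61.5 TPM. Mrps18a was at 63.9, 64.5, 57.6 and 54.0 TPM. Mrps18b was above the other two in every library. On log2(TPM + 1), Mrps18b exceeded Mrps18c by 0.79 ± 0.089 (SD, n = 4; exact two-sided sign-flip permutation p = 0.125, adjusted over 3 pairs 0.125). It exceeded Mrps18a by 0.96 ± 0.090 (exact permutation p = 0.125). Mrps18a minus Mrps18c was -0.17 ± 0.037 (exact permutation p = 0.125). With 4 libraries 0.125 is the smallest p this test can give, so none of the 3 differences could pass 0.05. With the principal length, Mrps18a was at 171 TPM, Mrps18b at 155 TPM and Mrps18c at 77.5 TPM: Mrps18a minus Mrps18c became 1.13 and Mrps18b minus Mrps18a became -0.14, while Mrps18b minus Mrps18c stayed at 0.99. Mrps18b shared 30.9% of its words with genes elsewhere, and 23.2% of the exonic bases of Mrps18c overlap Gm43511 on the same strand, so their levels carry that uncertainty.

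The spread of the members between libraries was close to that of other genes of like abundance. The SD of log2 CPM over the 4 libraries had a median of 0.084 over the members, 0.079 in the large and 0.093 in the small subunit, and 0.095 over the 11366 tested genes with a mean of 1 TPM or more. Over the 7418 tested genes within the log2 CPM range of the members other than Mrpl53 it was 0.078, slightly below that of the members. Mrpl55 had the smallest SD (0.028), at 105.6, 105.4, 104.8 and 104.9 TPM. The largest SD was that of Mrpl53 (0.59). Next were Mrps36 (0.19), Mrps28 (0.18), Mrps35 (0.16), Mrpl54 (0.16) and Mrpl18 (0.15). Mrps28 was at 238, 218, 227 and 185 TPM, and Mrpl54 at 210, 199, 182 and 169.5 TPM; both were lowest in replicate 4. Mrps35 was at 17.2, 16.4, 15.4 and 13.7 TPM, again lowest in replicate 4.

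A spread beyond that of genes of like abundance was tested for each gene with edgeR's quasi-likelihood fit over all 12285 genes that passed the count filter, and all 78 members passed it. At a Benjamini-Hochberg adjusted p under 0.05, 0 of 78 members were called, against 0.228% of all genes tested and 0.246% of those with a mean of 1 TPM or more. At an unadjusted p under 0.05, 7 members were past the threshold (8.97%), against 5.42% of all genes: Mrpl18, Mrps7, Mrps28, Mrpl28, Mrps18a, Mrps35 and Mrpl54. Their adjusted p lay between 0.79 (Mrpl18) and 0.92 (Mrpl54) in edgeR. DESeq2 marked 0 of 78 members as dispersion outliers, against 0.403% of genes. In simulated counts the edgeR test called 57 of 100 genes with an added SD of 0.5 on the log2 scale and 88 of 100 with an added SD of 1. Those genes were drawn from genes with a mean of at least 100 read pairs. The rates therefore do not cover Mrpl53, which held 10 to 33 read pairs. A smaller added spread, of the size of that of Mrpl18, was not simulated.

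Replicate 4 was low for nearly all members by a small amount. This pattern was noticed in the data and is given as a description. In log2 CPM, 74 of 78 members (94.9%) were below their own mean over the libraries in replicate 4, against 48.8% of all genes tested. Replicate 4 was the lowest library for 58 members (74.4%), against 29.1% of all genes. The median deviation of the members was 0.052 in replicate 1, 0.035 in replicate 2, 0.018 in replicate 3 and -0.088 in replicate 4. It held in both subunits, with 48 of 49 large-subunit and 26 of 29 small-subunit genes below their mean. The 4 exceptions were Mrps12, Mrpl22, Mrps11 and Mrps31. Of these, 2 were highest in replicate 4: Mrps31, at 32.9, 30.3, 34.5 and 36.4 TPM, and Mrps12, at 183, 189, 189 and 197 TPM. The genes of cytosolic ribosomal proteins moved with them, with 81 of 85 below their mean in replicate 4 and a median deviation of -0.10. Of 9 tested mitochondrially encoded genes, 1 was below its mean in that library, and their median deviation was 0.24. A trend in transcript length, GC content and abundance, fitted over all genes, was also removed from each library. After that, 57 of 78 members (73.1%) were below their mean in replicate 4, against 49% of all genes. The members' median deviation was then -0.040. By subunit, 39 of 49 large-subunit and 18 of 29 small-subunit genes were below, and so were 68 of 85 cytosolic ribosomal protein genes. Replicate 4 also had the fewest read pairs. The part of library composition, RNA quality or cell state in this difference was not tested. Without replicate 4, the members' median SD was 0.058, and no such value was computed for other genes.

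**Figure D4:**
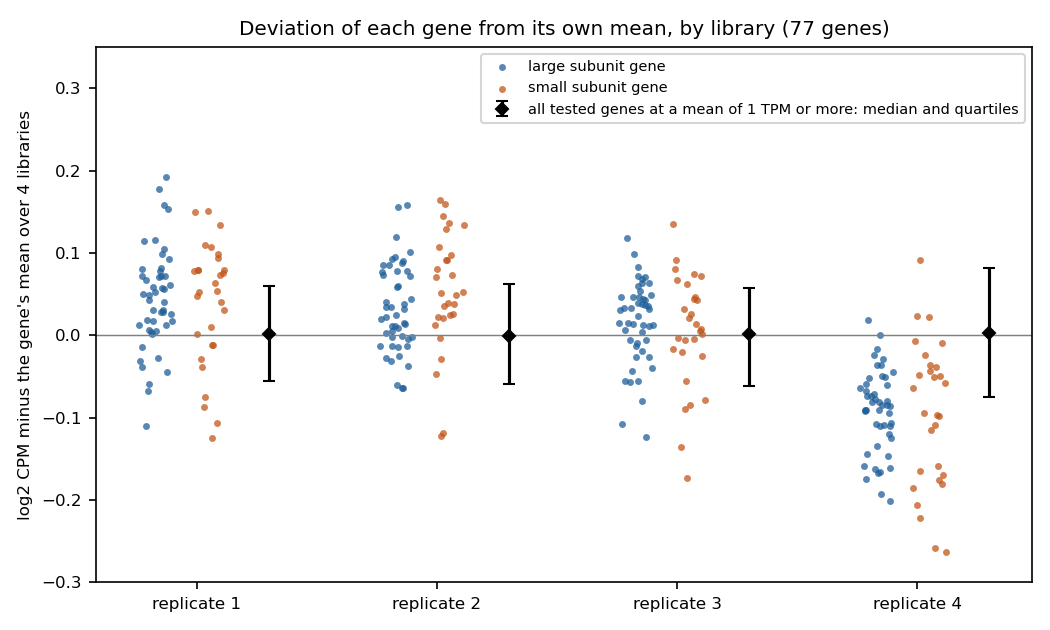
Deviation of log2 CPM from the gene's own mean over 4 libraries, by library, for 77 members (Mrpl53 is left out for scale); blue points are large-subunit and orange points small-subunit genes, and black diamonds with bars give the median and quartiles of all tested genes with a mean of 1 TPM or more. The members lie mostly below 0 in replicate 4, with a median of -0.088 over all 78, while the median of all genes stays near 0 in each library.

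Genes that act with the mitochondrial ribosome were examined as lists that were chosen with earlier results of these data known. Counts are of listed genes found by symbol. Found were 5 of 6 mitoribosomal proteins with other symbols, 28 of 30 assembly and modification genes and 16 of 17 translation factors. The transcription and genome maintenance list had 15 of 18, and the synthetase and mitochondrially encoded lists were found in full. The 5 mitoribosomal proteins with other symbols, all detected, ranged from Dap3, a GTP-binding small-subunit protein, at 62.8 ± 1.73 TPM, through Ptcd3 (65.7 TPM), Gadd45gip1 (137 TPM) and Aurkaip1 (173 TPM), to Chchd1 at 269 ± 29.3 TPM. Their median of 137 TPM compared with 94.6 TPM for the members, and none was called for spread. The 28 genes for ribosome assembly and rRNA modification had a median of 32.7 TPM, from Gtpbp10 (7.35 TPM) to Rbfa (164 TPM), and 0 were called. The 16 translation factors had a median of 28.3 TPM, from Pdf (2.39 TPM) to Tufm, the mitochondrial elongation factor Tu, at 257 ± 5.20 TPM, and 0 were called. The 15 genes of mitochondrial transcription and genome maintenance had a median of 52.4 TPM, and 0 were called. The 17 mitochondrial aminoacyl-tRNA synthetases had a median of 38.3 TPM, and 1 was called: Lars2, at 148, 175, 123 and 123 TPM in replicates 1 to 4 (adjusted p = 0.030, edgeR). Over all genes tested, 0.228% were called, so few calls are awaited in lists of this size. Of 15 mitochondrially encoded genes, 9 were detected, with mt-Co1 highest (5147 ± 736 TPM). The genes mt-Atp6, mt-Atp8, mt-Nd3 and mt-Nd4l were listed at 0 in all 4 libraries, and mt-Co2 and mt-Co3 averaged 0.12 and 0.13 TPM. These undetected genes lie in a single stretch of the mitochondrial genome, between mt-Co1 and mt-Nd4 (736 TPM). Whether their reads were lost because they map to several places was not tested, so their values do not show that the RNA was absent.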

How the data were processed

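The authors deposited raw counts, 1 table of read pairs for each library. They came from featureCounts 1.4.6-p4 over exons of GENCODE M13, reverse-stranded (setting 2), with both mates mapped, on STAR alignments, per the file headers; the labels name mm10 as the build. The recorded command sets nothing for read pairs that map to several places or genes. Total RNA-seq is the assay's name in the labels, while the linked library protocol is one for polyA+ RNA; which applies was not settled. Symbols and types came from GENCODE M21 (50376 of 50600 identifiers matched, 224 not); promoter sequences came from RefSeq (GRCm38.p6). Totals were 53619400, 48931322, 63313389 and 46192242 read pairs in replicates 1 to 4.

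TPM was computed from counts and the deposited exonic length. Spread was tested with edgeR 4.0.16 (TMM, filterByExpr, intercept-only robust quasi-likelihood fit; residual quasi-dispersion against the trended prior with 13.9 prior degrees of freedom, upper tail of F; Benjamini-Hochberg adjustment at 0.05). The SD of log2 CPM used a prior count of 2. DESeq2 1.42.0 was the alternative, and the edgeR test was tested on simulated data of 12146 genes, where it called 7 of 11947 unchanged genes. A 50-base word is any stretch of that length in a member's transcript, looked for in the transcripts of other genes. The members and lists were chosen with earlier results of these data known. Genes named by rule were the 10 highest and 5 lowest members by mean TPM in each subunit, members past the spread threshold, the 5 largest SDs at a mean of 5 TPM or more, Mrps18a to Mrps18c, Mrps30, Mrps36, Mrpl12, Mrpl58, Mrps12 and Mrpl55, the mitoribosomal proteins with other symbols, and the ends of each list; other names were chosen after their values were seen.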

Additional observations from a re-analysis of the deposited data

Results flagged for a closer look

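In 44 values examined over the 4 libraries, 1 stood apart: Mrps7, where replicate 4 was at 172.7 TPM and the nearest library at 200.8 TPM. The gap was 0.859 of the whole range, above Dixon's critical value for 4 samples. Chance gives about 1 such value in 20. The values examined did not cover every member, so Mrps7 need not be the only one. Mrpl11, which was not among them, was at 71.8, 71.9, 71.0 and 63.3 TPM in replicates 1 to 4. Mrps7 was one of the 74 members below their own mean in replicate 4, and its adjusted p for spread was 0.83 in edgeR.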

How the results depend on the processing

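No paired analysis was possible because the libraries form a single group. The large-minus-small difference of 0.54 was -0.075 with the principal transcript length, 0.038 on CPM, 0.32 by place in the structure, 0.16 as a mean over members and 0.26 over the 54 members with no same-strand overlap and few shared words; leaving out a library gave 0.52 to 0.56. The homologue-minus-specific difference of 0.083 was 0.0089 for members at 1 TPM or more in every library and 0.20 with the principal length. Mrps18a minus Mrps18c, -0.17, was 1.13 with the principal length and 1.56 on CPM; Mrps18b minus Mrps18a, 0.96, was -0.14 with the principal length and 0.15 on CPM; Mrps18b minus Mrps18c, 0.79, was 1.71 on CPM. The settings that change only the length use the same counts. The alternatives on principal length, unique sequence and replicate 4 were chosen after seeing the data. No member was called for spread under any of the 7 alternatives run, nor did the members' median SD leave 0.058 to 0.091. Members below their mean in replicate 4 numbered 57 to 74, the lowest after removal of the trend. Detection was 77 or 78 members in each alternative. Mrpl53, with 10 read pairs in its lowest library, is limited by depth; every other member had at least 401 in each library.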
